A study of Homo sapiens with 4 samples.

Results

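The 4 genes of the myocyte enhancer factor 2 family (MEF2A, MEF2B, MEF2C and MEF2D) and the 4 genes of the class IIa histone deacetylases (HDAC4, HDAC5, HDAC7 and HDAC9) were examined in lists of Smad2 and Smad3 binding sites. The 8 genes were set by name among the 20033 protein-coding genes of GENCODE release 44. A peak was assigned to a gene when it overlapped the gene span widened by 10 kb on each side. In all, 67 peaks were assigned, 61 of them from the treated libraries. The cells were MDA-MB-231, a line from a human breast cancer, into which LAP-tagged Smad2 or Smad3 had been brought on a bacterial artificial chromosome that carries the gene with its own control elements. The endogenous Smad proteins were still present, and the tagged cells were selected with Geneticin and sorted on GFP. Chromatin was precipitated with an antibody against GFP, which is part of the LAP tag. Each of the 2 lines was left untreated or was given 10 ng/mL TGFβ-1 for 2 h, with 1 library per condition. Without replicates, no test between conditions was made.

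MEF2 proteins are transcription factors that bind an A/T-rich element and drive genes of muscle, neurons, vessels and lymphocytes. Class IIa HDACs have little deacetylase activity of their own. They bind MEF2 proteins on DNA and repress their targets together with corepressor complexes that contain HDAC3. Calcium-dependent and other kinases phosphorylate them, and 14-3-3 proteins then hold them in the cytoplasm. TGFβ-1 receptors phosphorylate Smad2 and Smad3, which enter the nucleus with Smad4. Smad3 contacts DNA directly at the Smad binding element, whereas the main form of Smad2 does not. HDAC4 and HDAC5 are known partners of Smad3, and Smad proteins are known to bind MEF2 factors.

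Before the results, 2 properties of the lists bear on every count. First, the 2 untreated lists are in doubt, since each carries the name of the other Smad in the deposit than in its sample label. The labels were followed here. An untreated list is not compared as a baseline with a treated list of the same Smad. The lowest background, in reads, came to 0.494 for the library labelled LAP-Smad2 untreated, 3.46 in the one labelled LAP-Smad3 untreated, 3.21 in LAP-Smad2 after TGFβ-1 and 0.812 in LAP-Smad3 after TGFβ-1. Second, the lists differed in length. They held 11266 peaks (labelled LAP-Smad2 untreated), 3511 peaks (labelled LAP-Smad3 untreated), 26828 peaks (LAP-Smad2 after TGFβ-1) and 62551 peaks (LAP-Smad3 after TGFβ-1). How far the depth of the libraries set these lengths was not tested.

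The sequences on which the account turns are 3 of the sites at which the intervals of both Smads overlapped after TGFβ-1, those of MEF2D and HDAC4, whose windows are not repeated sequence. Each of the 3 rests on 8 to 10 LAP-Smad3 reads. Each is a stretch of 120 bases centred on the shared site, given on the plus strand of hg38. Capitals mark CAGAC, the core of the Smad binding element, on either strand.
MEF2D, promoter site shared by LAP-Smad2 and LAP-Smad3, chr1:156500273-156500392: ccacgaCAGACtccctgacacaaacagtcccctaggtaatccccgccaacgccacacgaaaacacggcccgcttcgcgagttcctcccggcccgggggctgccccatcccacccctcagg
HDAC4, shared intron site, chr2:239245979-239246098: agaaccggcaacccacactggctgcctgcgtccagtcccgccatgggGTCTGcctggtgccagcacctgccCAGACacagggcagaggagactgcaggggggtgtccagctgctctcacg
HDAC4, shared intron site, chr2:239331750-239331869: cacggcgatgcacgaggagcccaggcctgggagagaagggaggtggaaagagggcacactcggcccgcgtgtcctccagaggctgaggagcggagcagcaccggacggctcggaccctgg
The MEF2D and HDAC4 stretches were each a sequence of its own, with no run of more than 8 bases in common between any 2 of the 3. The windows at several other sites, the shared sites of HDAC9 among them, matched the 7SL RNA gene RN7SL1, from which the Alu repeats of the human genome derive. In 400 bp windows on the summits of all 67 peaks, the MEF2 element itself was met next to only 1 peak. A stretch of 236 bases is shown because it holds the summit of the LAP-Smad2 promoter peak of HDAC9 and, in capitals, the match to the MEF2 consensus.
HDAC9, upstream of the gene start, chr7:18086611-18086846: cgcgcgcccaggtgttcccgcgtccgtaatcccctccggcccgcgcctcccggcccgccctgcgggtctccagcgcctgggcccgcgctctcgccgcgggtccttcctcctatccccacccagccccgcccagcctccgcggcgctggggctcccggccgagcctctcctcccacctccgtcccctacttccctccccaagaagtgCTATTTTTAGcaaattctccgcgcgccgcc

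After TGFβ-1 each of the 8 genes had peaks of both Smads. Without windows of repeated sequence, 6 of the 8 kept both, since MEF2A then had no peak in either list and MEF2C none of LAP-Smad2. LAP-Smad2 had 16 peaks and LAP-Smad3 had 45. At least 1 LAP-Smad2 peak lay at 8 of 8 genes, where 55.9% of all protein-coding genes had one, and at least 1 LAP-Smad3 peak at 8 of 8, where 74.3% did. Peaks in both treated lists were met at 47% of all protein-coding genes. In the library labelled LAP-Smad2 untreated, 6 peaks lay at 5 of the 8 genes (22% of all protein-coding genes), and in the one labelled LAP-Smad3 untreated none lay at any of the 8 (9.14% of all protein-coding genes). The plot of peaks per gene shows the 4 values of each gene.

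**Figure D1:**
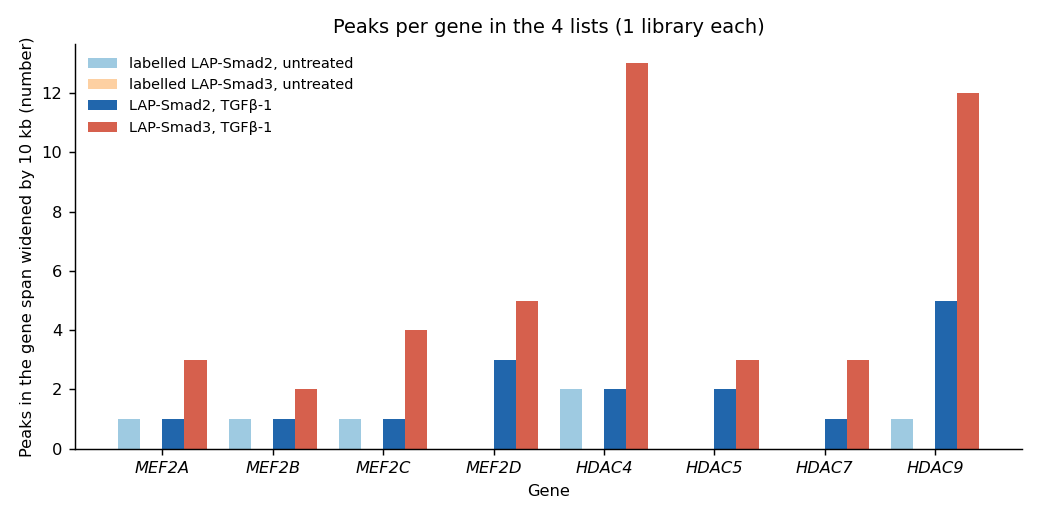
Bars give the number of peaks (y axis) in each gene span widened by 10 kb (x axis) in the 4 lists, with 1 library per list and no error bars. HDAC4 and HDAC9 carry 13 and 12 LAP-Smad3 peaks after TGFβ-1, every other gene 5 or fewer, and the list labelled LAP-Smad3 untreated has no bar.

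The genes are long, and length enters any count of this kind. With the 10 kb flanks the 8 genes covered 1948 kb. The median protein-coding gene covered 47.5 kb, and HDAC9 (935 kb) was longer than 99.5% of the 20033, HDAC4 (373 kb) than 96.8%, MEF2C (207 kb) than 91.7% and MEF2A (171 kb) than 89.0%. Per 100 kb the members carried 0.821 LAP-Smad2 peaks, beside 0.869 over the genome and 1.10 over all protein-coding spans. They carried 2.31 LAP-Smad3 peaks per 100 kb, beside 2.03 and 2.55. The 16 and 45 peaks are thus close in density to what the lists held elsewhere. The MEF2 genes carried 1.20 LAP-Smad2 and 2.79 LAP-Smad3 peaks per 100 kb, and the class IIa HDAC genes carried 0.691 and 2.14.

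Length also placed the single genes. Among the 99 protein-coding genes with widened spans of 800 to 1300 kb, the median was 3 LAP-Smad2 and 10 LAP-Smad3 peaks, and HDAC9 had 5 and 12. Among the 575 of 300 to 500 kb, the medians were 2 and 5 with a 95th percentile of 13 for LAP-Smad3, and HDAC4 had 2 and 13. Among the 3680 of 50 to 80 kb, the medians were 1 and 2 and the 95th percentiles 3 and 8. MEF2D had 3 and 5 there, HDAC5 2 and 3, HDAC7 1 and 3, and MEF2B 1 and 2. MEF2D thus stood at the 95th percentile of its length class in the LAP-Smad2 list and HDAC4 in the LAP-Smad3 list. With the lowest length of the 8, MEF2D also had the highest density, at 5.26 LAP-Smad2 and 8.76 LAP-Smad3 peaks per 100 kb. With more than 10 reads asked for, it kept 3 LAP-Smad2 peaks but 1 LAP-Smad3 peak, or 1.75 per 100 kb.

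**Figure D2:**
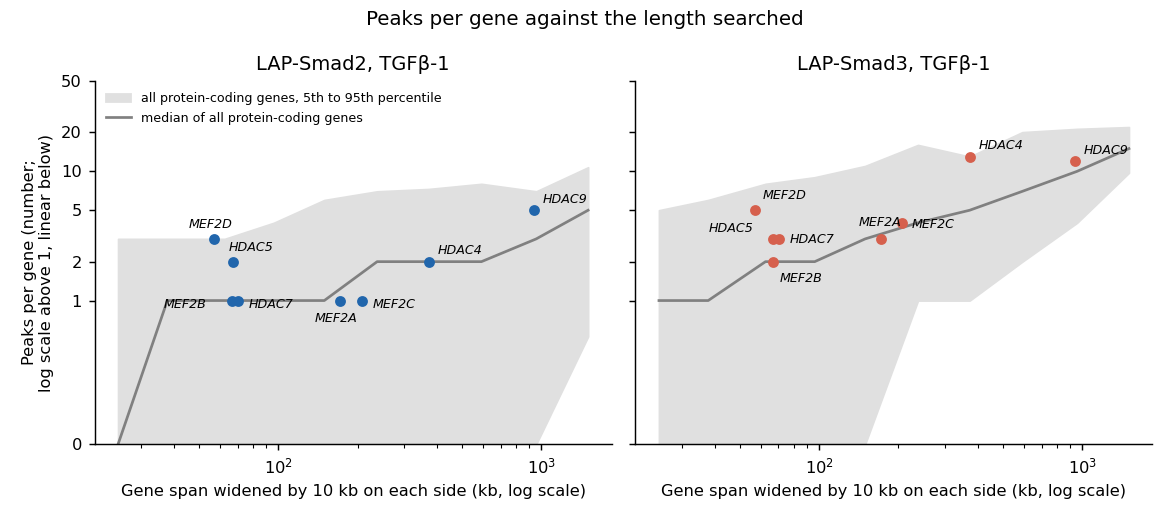
Each panel plots, for a treated list, the peaks per gene (y axis, number, log scale above 1) against the gene span widened by 10 kb on each side (x axis, kb, log scale). Points are the 8 genes, the line is the median of all protein-coding genes in classes of length and the grey band runs from their 5th to their 95th percentile. All 8 points lie inside or on the edge of the band in both panels, with MEF2D (3 peaks, left) and HDAC4 (13 peaks, right) on its upper edge.

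The 2 Smads divided the 61 treated peaks much as their lists did. LAP-Smad3 took 73.8% of them (95% Wilson interval 61.6 to 83.2%), and 70.0% over the 2 whole lists. The share was 70% of 20 peaks at the MEF2 genes (48.1 to 85.5%) and 75.6% of 41 at the HDAC genes (60.7 to 86.2%), and these intervals overlap. They cover counting error only.

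Peaks of both Smads overlapped at 5 sites in 3 of the 8 genes (MEF2D, HDAC4 and HDAC9), where 16.8% of all protein-coding genes had such a site. This was 5 of 16 LAP-Smad2 peaks, or 31.2% (14.2 to 55.6%), beside 24.5% of that whole list. It was 5 of 45 LAP-Smad3 peaks, or 11.1% (4.84 to 23.5%), beside 10.6% of that list. Both whole-list shares lie inside the members' intervals. With more than 10 reads asked of each peak, 2 of the 16 remained (12.5%), the 7SL-matching sites of HDAC9, and those of MEF2D and HDAC4 were lost. With the LAP-Smad3 list cut to the length of the LAP-Smad2 list, 2 of the 16 also remained (12.5%), the HDAC4 site at chr2:239331719-239331930 and the HDAC9 site at chr7:18745559-18745770. For the other 11 LAP-Smad2 peaks the nearest LAP-Smad3 summit was 0.622 to 30.8 kb away, with a median of 7.60 kb.

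MEF2D, which like MEF2A encodes a widely expressed family member, was the only MEF2 gene with a shared site. Its gene (ENSG00000116604.19, chr1:156463727-156500779, minus strand) had 3 peaks of LAP-Smad2 and 5 of LAP-Smad3 with TGFβ-1 and none in either untreated list. The shared site lay in the promoter, with both summits in an intron. The LAP-Smad2 peak (chr1:156500224-156500564) had its summit 385 bp downstream of a transcription start site (TSS) of the gene, with 19 reads over a background of 3.44 and a fold of 4.50. The LAP-Smad3 peak (chr1:156500226-156500425) had 10 reads over 1.39 and a fold of 4.60, and its summit lay 71 bp from that of LAP-Smad2. The fold is (reads + 1) divided by (background + 1), as the peak caller computed it. The printed MEF2D stretch holds 1 CAGAC.

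The other MEF2D peaks were called in only 1 of the treated lists. LAP-Smad2 had 18 reads at each of 2 more sites, in an untranslated exon near the 3′ end and in an intron 4035 bp from a TSS. LAP-Smad3 had a peak 622 bp from the former with 8 reads. Another 2 LAP-Smad3 peaks lay at internal promoters, 141 bp (9 reads) and 926 bp (7 reads) from a TSS. The fifth had 12 reads and lay upstream of the gene, 667 bp from the start of ENSG00000289593, in a window matching 7SL. All 5 LAP-Smad3 windows of MEF2D held CAGAC.

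MEF2A (ENSG00000068305.19, chr15:99565417-99716488, plus strand) had 1 LAP-Smad2 peak with 15 reads and 3 LAP-Smad3 peaks with 9 to 13 reads, all in introns and 36090 to 65054 bp from a TSS of the gene. All 4 windows matched 7SL. The LAP-Smad3 peak at chr15:99622719-99622941, with 13 reads, overlapped a peak of the library labelled LAP-Smad2 untreated with 12 reads. Its window carries GGCGCC, a palindromic Smad-binding sequence. No peak lay at the MEF2A promoters.

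MEF2C (ENSG00000081189.17, chr5:88717117-88904257, minus strand), known for its part in heart, nerve and lymphoid development, had 1 LAP-Smad2 and 4 LAP-Smad3 peaks. The LAP-Smad2 peak had 17 reads and a window matching 7SL. It lay 775 bp upstream of an internal TSS of the gene. From the canonical start, that of the transcript marked canonical in GENCODE, it lay 133 kb downstream. A LAP-Smad3 peak with 15 reads lay 2476 bp from it, matched 7SL too, and overlapped a peak of 10 reads in the library labelled LAP-Smad2 untreated. The LAP-Smad3 peak with 11 reads at chr5:88889471-88889672 lay 271 bp upstream of a MEF2C start but only 139 bp from a start of MEF2C-AS1, a long non-coding RNA on the other strand. Its window was not repeated sequence. ChIP-seq peaks carry no strand, so that the 2 genes cannot be told apart there.

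MEF2B (ENSG00000213999.17, chr19:19145567-19192131, minus strand), a family member best known from B lymphocytes, had 1 LAP-Smad2 peak with 17 reads in an untranslated exon, 24.2 kb from a TSS of the gene. Of its 2 LAP-Smad3 peaks, the one with 13 reads lay 476 bp from the start of TMEM161A, and the one with 11 reads lay 1499 bp from a start of BORCS8. The LAP-Smad2 peak was likewise nearer to the TMEM161A start, at 7569 bp. No treated peak of MEF2B was thus closest to a MEF2B start. The peak of 12 reads in the library labelled LAP-Smad2 untreated lay 2819 bp from a MEF2B TSS and matched 7SL.

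HDAC4 (ENSG00000068024.18, chr2:239048168-239401654, minus strand), the class IIa HDAC known for control of cartilage and muscle genes, had the most LAP-Smad3 peaks of the 8 genes. All 13 lay in introns, 1 of them 180 bp from an internal TSS. In 12 of the 13 the summit held 7 to 9 reads over the lowest background of the library (0.812), and the other held 13. Only 1 of the 13 passed when more than 10 reads were asked for. In contrast to HDAC9, 11 of the 13 windows were not repeated sequence, and 5 held CAGAC.

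HDAC4 had 2 LAP-Smad2 peaks, and both were shared. At chr2:239245933-239246169, 9343 bp upstream of the nearest TSS of the gene, LAP-Smad2 had 14 reads over 3.21 and a fold of 3.56. LAP-Smad3 had 8 reads over 0.812 and a fold of 4.97 there, 53 bp away. At chr2:239331719-239331930, 7249 bp upstream of a TSS, LAP-Smad2 had 20 reads and a fold of 4.79, and LAP-Smad3 had 9 reads and a fold of 5.52, 89 bp away. The former stretch holds CAGAC on both strands, and the latter as printed holds none, although the 200 bp window around the LAP-Smad2 summit holds 1. The 2 peaks of the library labelled LAP-Smad2 untreated, with 6 and 11 reads, overlapped none of these.

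HDAC9 (ENSG00000048052.25, chr7:18086949-19002416, plus strand), whose locus also encodes a short form without the deacetylase domain, had 5 LAP-Smad2 and 12 LAP-Smad3 peaks. Both of its shared sites lay in introns. At chr7:18478068-18478336 LAP-Smad2 had 17 reads (fold 4.27) and LAP-Smad3 had 15 reads (fold 3.32), with summits 53 bp apart. At chr7:18745559-18745770 both Smads had 21 reads, over 3.21 and 3.12, and summits 4 bp apart. The latter LAP-Smad2 peak had the highest fold of the 16, at 5.22, which was the 93.2 percentile of its list. The windows at both sites carry GGCGCC, and both matched 7SL.

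Repeated sequence ran through HDAC9. Of its 12 LAP-Smad3 windows 10 were repeated sequence, 9 of these matching 7SL, and 3 of 5 LAP-Smad2 windows were. The 2 LAP-Smad3 windows that were not repeated had 9 and 11 reads and lay in introns. The peak of the library labelled LAP-Smad2 untreated, with 11 reads, matched 7SL as well. On the map of the genes most HDAC9 circles are open, while those of HDAC4 are mostly filled.

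The LAP-Smad2 peak at the start of HDAC9 was not repeated sequence. It lay at chr7:18086388-18086793 with 18 reads over 3.48 (fold 4.24), its summit 318 bp upstream of the first TSS of the gene. No LAP-Smad3 summit at HDAC9 was nearer to it than 30.8 kb. A match to the MEF2 consensus stood at chr7:18086817-18086826, 24 bp beyond the end of the interval and 190 bp from the summit, between the peak and the gene start. It is shown in capitals above. Its window was 77% G+C, and the match is a description of the sequence, not a mapped MEF2 site.

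HDAC5 (ENSG00000108840.16, chr17:44076746-44123702, minus strand), known as a signal-responsive repressor in heart and skeletal muscle, had 2 LAP-Smad2 peaks, both at internal promoters. These peaks lay 30.4 and 12.7 kb downstream of the canonical start. They held 25 reads, the most of the 16, at 82 bp upstream of a TSS (fold 3.82) and 19 reads at 400 bp downstream of another (fold 3.45). Both windows held CAGAC and neither was repeated. The 3 LAP-Smad3 peaks, with 9 to 16 reads, lay 2357 to 4003 bp from a TSS of HDAC5. None overlapped a LAP-Smad2 peak, and the nearest summits of the 2 Smads were 3.99 kb apart. Of the 3 LAP-Smad3 windows 2 were repeated sequence, that of the peak with 16 reads matching 7SL, and none held CAGAC. The peak whose window was not repeated had 9 reads. It lay nearer to a start of ENSG00000267638, at 3360 bp, than to one of HDAC5.

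HDAC7 (ENSG00000061273.18, chr12:47782722-47833132, minus strand), the class IIa HDAC of endothelium and thymocytes, had 1 LAP-Smad2 peak with 13 reads, the fewest of the 16, at 124 bp from a TSS. Its window was 84% G+C and held no CAGAC. The 3 LAP-Smad3 peaks had 7, 8 and 12 reads, and all 3 windows held CAGAC. In that order they lay 913 bp from an HDAC7 TSS, 890 bp from the start of SLC48A1 beyond the 3′ end, and 213 bp from the start of LINC02354. The window of the peak with 12 reads, the only LAP-Smad3 peak there with more than 10, matched 7SL.

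**Figure D3:**
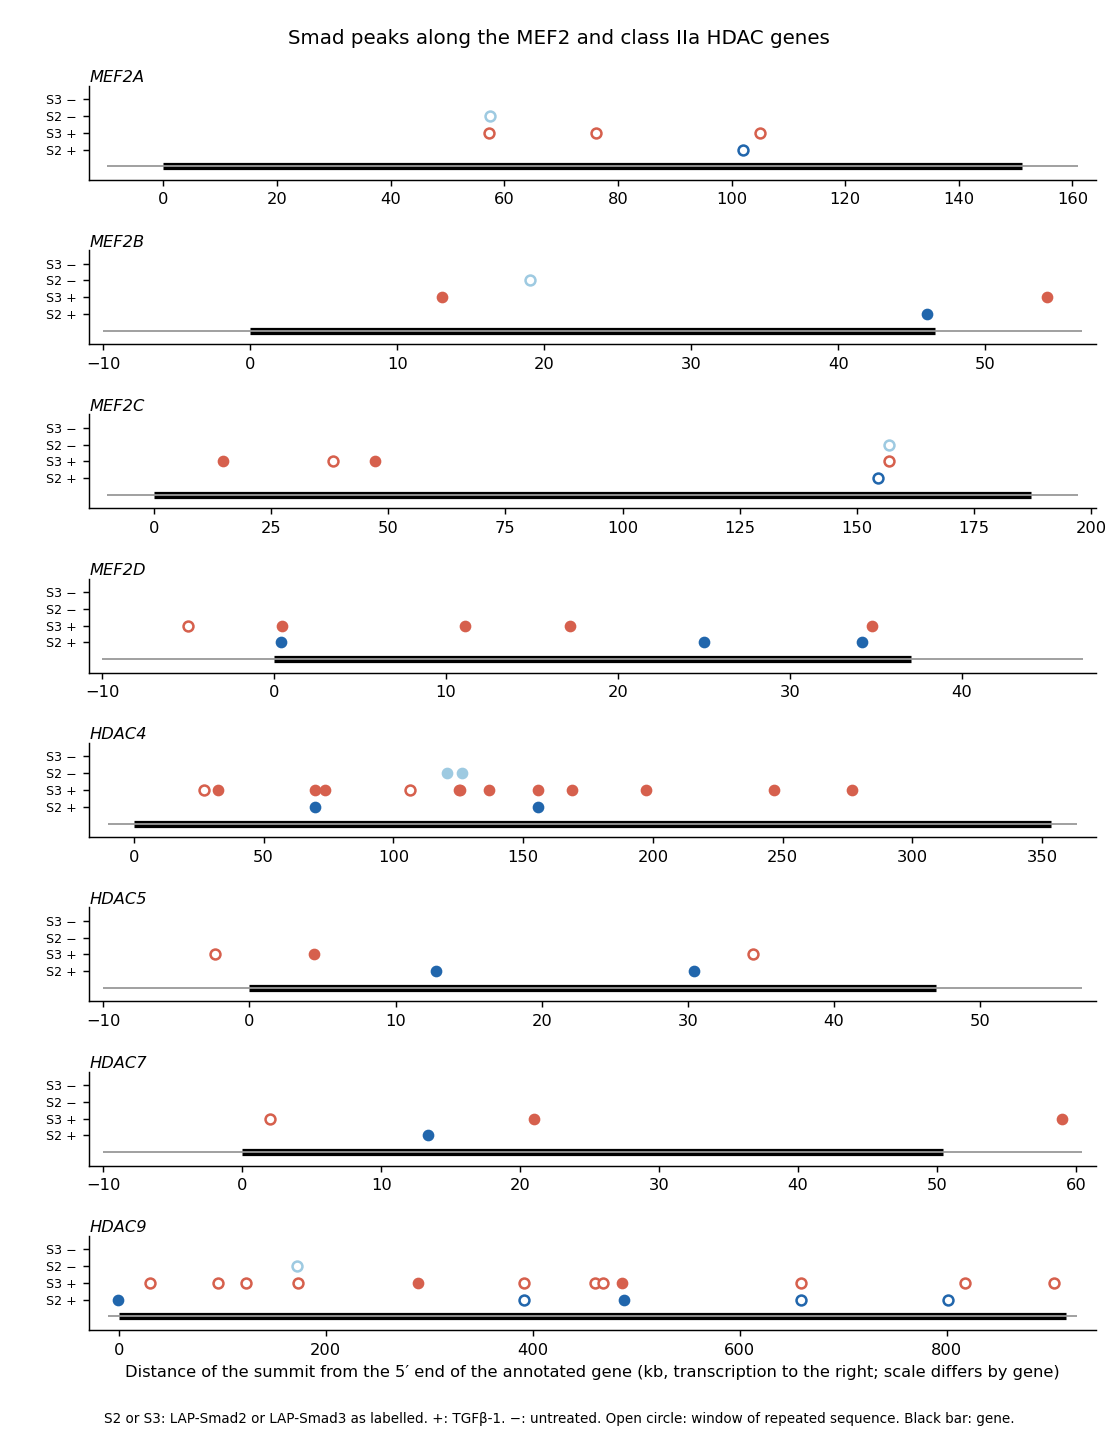
Each panel maps a gene, with the summit of every peak at its distance from the 5′ end of the annotated gene (x axis, kb, in the direction of transcription, with a scale of its own) and the 4 lists as rows (y axis). Filled circles are windows of other sequence and open circles windows of repeated sequence. HDAC4 shows 11 filled of 13 LAP-Smad3 circles and HDAC9 2 filled of 12, and the circles of the treated lists coincide at 5 sites in MEF2D, HDAC4 and HDAC9.

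By position, 12 of the 16 LAP-Smad2 summits lay in introns, 3 in exons and 1 outside the gene. Of the 45 LAP-Smad3 summits 40 lay in introns, 1 in an exon and 4 outside. The intron share was 75% (50.5 to 89.8%) and 88.9% (76.5 to 95.2%), beside 61.7% and 73.1% over all pairs of a peak and a protein-coding gene with a widened span of at least 50 kb, as that of each member was. The part of gene length in this difference was not tested. A promoter peak, with its interval within 3 kb of a TSS of the gene, was present for LAP-Smad2 at 5 of 8 genes (MEF2C, MEF2D, HDAC5, HDAC7 and HDAC9), where 35.4% of all protein-coding genes had one. For LAP-Smad3 it was present at 5 of 8 (MEF2C, MEF2D, HDAC4, HDAC5 and HDAC7), where 40.2% had one. Promoter peaks were 6 of 16 for LAP-Smad2, or 37.5% (18.5 to 61.4%), and 10 of 45 for LAP-Smad3, or 22.2% (12.5 to 36.3%). These intervals overlap, and over the same pairs the promoter shares were 37.6% and 23.2%. Start sites of all annotated transcripts were used. With those of protein-coding transcripts only, LAP-Smad3 had 7 of 45 promoter peaks, and within 1 kb of any start site it had 6 of 45. LAP-Smad2 had 6 of 16 under either rule. The only HDAC4 promoter peak lay 14185 bp from a start of a protein-coding transcript. The start of another gene was nearer than that of the member for 4 of the 16 peaks of LAP-Smad2 and for 18 of the 45 of LAP-Smad3, or 25% and 40%, beside 42.6% and 44.2% over those pairs.

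Within their own lists the members were peaks of ordinary fold. The median fold was 4.18 for LAP-Smad2, beside 3.98 for the whole list, and 4.96 for LAP-Smad3, beside 4.97. The members' folds ranged from the 5.61 to the 93.2 percentile of the LAP-Smad2 list, with a median of 61.5, and from the 0.571 to the 91.4 percentile of the LAP-Smad3 list, with a median of 49.4. Ranked by −log10 q instead, the median percentile was lower, at 47.9 for LAP-Smad2 and 38.8 for LAP-Smad3. Without treatment, the 6 peaks found in the list labelled LAP-Smad2 had a median percentile of 26.0. The weakest LAP-Smad3 fold was that of the peak upstream of MEF2D, and the strongest was 6.70, with 15 reads, in an HDAC9 intron at chr7:18904572-18904855.

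The reads behind the folds were few. LAP-Smad2 summits held 13 to 25 reads, with a median of 17.5 beside 19 for the list. LAP-Smad3 summits held 7 to 21, with a median of 10 beside 11. At most 10 reads were present in 23 of the 45 LAP-Smad3 peaks, beside 46.6% of that list, and in none of the 16 LAP-Smad2 peaks, beside 0 peaks of that list. The background was at the lowest value of the library for 8 of 16 LAP-Smad2 peaks (20.9% of the list) and for 19 of 45 LAP-Smad3 peaks, or 42.2% (28.8% of the list). No peak of the LAP-Smad2 list had fewer than 11 reads, so that summits like those of HDAC4 with 7 to 9 reads had no counterpart there.

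**Figure D4:**
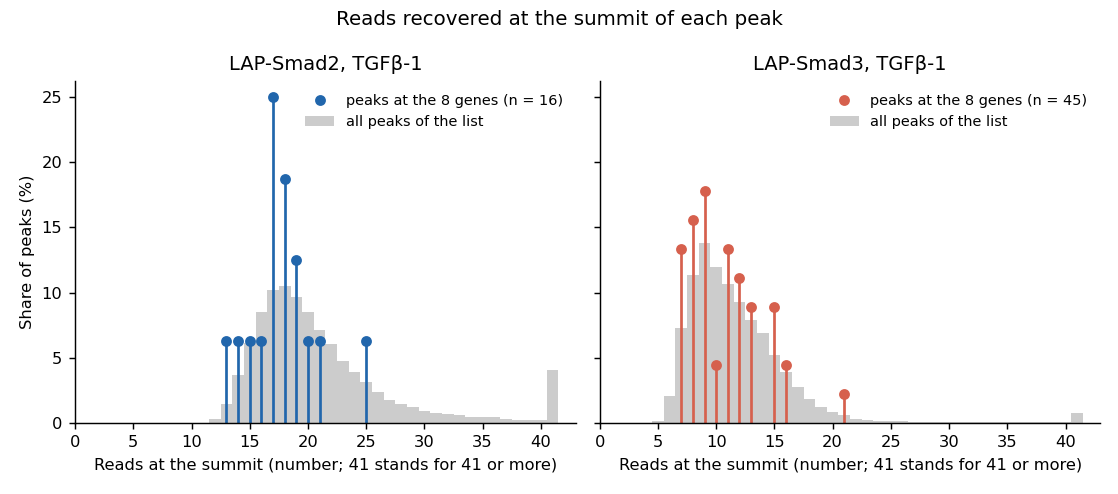
Each panel plots the share of peaks (y axis, percent) by the number of reads at the summit (x axis, with 41 standing for 41 or more) for a treated list. Grey bars are the whole list and points on stems the peaks at the 8 genes. The members sit between 13 and 25 reads for LAP-Smad2 and between 7 and 21 for LAP-Smad3. Most lie in the body of each list, while the LAP-Smad3 peak with 21 reads, at HDAC9, lies in the upper tail.

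None of the 16 LAP-Smad2 peaks overlapped a peak of either untreated list (0%, interval 0 to 19.4%). Of that whole list 14.1% overlapped the list labelled LAP-Smad2 untreated and 9.25% the list labelled LAP-Smad3 untreated. Of the 45 LAP-Smad3 peaks 2 overlapped the former (4.44%, beside 7.27% of that list) and none the latter (beside 1.10%). The 2 were the 7SL-matching sites of MEF2A and MEF2C.

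Repeated sequence was counted in a 200 bp window on each summit. A window was called repeated when its median 15-base word occurred at least 1000 times in hg38. This held for 5 of 16 LAP-Smad2 windows, or 31.2%, beside 30.7% of the list, and for 21 of 45 LAP-Smad3 windows, or 46.7%, beside 42.9%. A match to 7SL was found in 5 LAP-Smad2 windows (19.4% of the list) and in 19 LAP-Smad3 windows, or 42.2% (37.8% of the list). In the library labelled LAP-Smad2 untreated it was found in 4 of 6 (27.0% of the list). The list shares lie inside the members' intervals for LAP-Smad2 (14.2 to 55.6% for either kind of window) and for LAP-Smad3 (32.9 to 60.9% repeated, 29.0 to 56.7% matching 7SL). Whether reads in such windows came from other copies of the repeat was not tested.

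Motifs were searched in the same windows on both strands. CAGAC was present in 6 of 16 LAP-Smad2 windows, or 37.5% (35.3% of the list), and in 17 of 45 LAP-Smad3 windows, or 37.8% (34.4%). GGCGCC was present in 3 of 16, or 18.8% (27.2% of the list), and in 14 of 45, or 31.1% (24.6%). The AP-1 element TGANTCA was present in 1 of 16 (1.38% of the list), in an intron of MEF2D, and in 1 of 45 (2.70%), in an intron of HDAC4. The MEF2 consensus was in none of the 16 and none of the 45 (0.116% and 0.232% of the lists).

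The 2 Smad motifs were divided between the kinds of window. In windows that were not repeated, CAGAC was present in 6 of 11 for LAP-Smad2, or 54.5% (28.0 to 78.7%), beside 35.1% of such windows in the list. For LAP-Smad3 it was present in 14 of 24, or 58.3% (38.8 to 75.5%), beside 45.0%. GGCGCC was present there in 0 of 11 and 1 of 24. In windows matching 7SL, CAGAC was present in 0 of 5 and 2 of 19 (10.2% of such LAP-Smad3 windows), and GGCGCC in 3 of 5 and 12 of 19, or 63.2%. The whole lists were divided in the same way, with GGCGCC in 55.9% of LAP-Smad2 windows matching 7SL and in 18.6% of those not repeated, and in 51.5% and 6.29% of such LAP-Smad3 windows.

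RefSeq (GRCh38.p14) gives 23 promoter sequences of 300 bases for 7 of the 8 genes. The MEF2 consensus occurred in 2 of them, at MEF2A and at the first start of HDAC9, and in 0.572% of all 35116 promoters. Among the 23, only the HDAC9 promoter was overlapped by a peak, the LAP-Smad2 peak described above. The set has no sequence for HDAC5, and for MEF2D only that of an internal start (chr1:156490638-156490937). The promoter peaks of HDAC5 and the shared promoter site of MEF2D thus lay outside what was searched here.

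The pathway around the 8 genes was followed in 52 further genes. At least 1 LAP-Smad2 peak lay at 36 of the 52, or 69.2%, and at least 1 LAP-Smad3 peak at 43, or 82.7%, beside 55.9% and 74.3% of all protein-coding genes. The role groups below are small, and their counts are to be read against these same shares. The density was 1.29 and 3.21 peaks per 100 kb, beside 1.10 and 2.55 over all protein-coding spans. By role it ran from 0.638 to 2.15 for LAP-Smad2 and from 1.30 to 5.55 for LAP-Smad3, with the corepressor genes highest in both lists. How far single genes set these densities was not tested. Among the kinases that act on MEF2 or class IIa HDACs, 12 of 18 had a LAP-Smad2 and 17 of 18 a LAP-Smad3 peak. All 5 phosphatase genes had peaks of each. Of the 7 14-3-3 genes 4 had LAP-Smad2 and 4 LAP-Smad3 peaks, and of the 7 corepressor genes 7 and 6 did. Of 6 known MEF2 targets 3 had LAP-Smad2 and 3 LAP-Smad3 peaks.

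Among these genes CAMK1D, a calcium-dependent kinase, had 7 LAP-Smad2 peaks, level with CAMK2G, and 14 LAP-Smad3 peaks, with 4 sites shared. CAMK2B, a subunit of a kinase that phosphorylates HDAC4, had 17 LAP-Smad3 peaks and no LAP-Smad2 peak. HDAC4 itself had 13, and HDAC9 12.

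Of all protein-coding genes, those whose counts over the 4 lists were most like HDAC9 (1, 0, 5 and 12 peaks) were EPHA6 on 967 kb and ENSG00000285218 on 462 kb, each with the same 4 counts, and ASS1 with 1, 0, 5 and 13 peaks on 76.3 kb. The likeness was the Euclidean distance of log2(peaks + 1) over the 4 lists, which was 0, 0 and 0.107.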

How the data were processed

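Anti-GFP ChIP-seq was analysed in 4 libraries, 1 per condition. The authors used Bowtie2 for alignment to hg38, extended reads to 200 bp, ran MACS2 with a q-value limit of 0.05, and deposited 1 peak list per library. Per the authors' lists, fold enrichment is a ratio over local background, and the p-value and q-value were deposited as −log10 values. The control library, MACS2 version and alignment filters are not given in the sources used here, and library depth is unknown. The members, companion genes and tests were chosen with earlier results of these data known. Peaks of at least 1 bp overlap were joined to GENCODE 44. All 8 members were named, with the 2 companions with most peaks per treated list. So were the 3 genes most like the member with most treated peaks (HDAC9). Only some of the neighbouring genes whose start was nearer were named. A further companion gene that the rule named, and the sequences of some sites, are not reported here. The ratio and the −log10 p-value gave back whole reads and background for 99.97 to 100% of the peaks of each list, to 0.001 in −log10 p, a step chosen after the data were seen. Windows matching RN7SL1 were found with blastn 2.17.0 (E-value 1e-05). Python 3.11.15, pandas 2.3.3, scipy 1.17.1 and pysam 0.24.0 were used. Wilson intervals at 95% cover counting error only. The scripts passed 5 of 5 checks on simulated data.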

Additional observations from a re-analysis of the deposited data

How the results depend on the processing

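Each of 25 results was computed under alternative settings, 88 values in all. Of these, 78 stayed within the counting interval or within 1.5 times of the main value, and 10 moved further. Whether a direction turned was not scored. The intervals are wide, so that LAP-Smad3 promoter peaks at 6 of 45 within 1 kb of a start site, in place of 10, counted as unmoved. No paired analysis was possible because each condition had 1 library. Without repeated windows, a setting added after seeing the data, the library labelled LAP-Smad2 untreated kept 2 of 6 peaks at 1 of 5 genes, and LAP-Smad3 after TGFβ-1 kept 24 of 45. With more than 10 reads at the summit, added likewise, LAP-Smad3 kept 22 peaks, and with as many top peaks as the LAP-Smad2 list it kept 14. Under each of these 2 settings the LAP-Smad2 peaks overlapping LAP-Smad3 went from 31.2% to 12.5%. A flank of 50 kb raised the LAP-Smad2 peaks from 16 to 30. For LAP-Smad3, windows of 400 bp raised the CAGAC share from 37.8% to 62.2%, and windows on the interval centre lowered that of TGANTCA from 2.22% to 0. The 400 bp window is longer and the top list shorter by construction. With 1 library per condition, unknown depth and 6 to 45 peaks, differences between lists carry no replicate error.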
